A study of Homo sapiens with 6 samples.

Results

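The miR-200 family and miR-205 are microRNAs (miRNAs) best known from epithelial cells. The set described here was chosen by name and holds 8 of the 2588 mature human miRNAs counted: hsa-miR-200a-3p, hsa-miR-200b-3p, hsa-miR-200c-3p, hsa-miR-141-3p, hsa-miR-429, hsa-miR-205-5p, and the opposite strands hsa-miR-200a-5p and hsa-miR-200b-5p. Small RNA libraries were made from A549, a lung carcinoma epithelial line, and BEAS-2B, an immortalised line from bronchial epithelium. Both were labelled wild type, and each was left untreated (0 ng/mL, the control) or treated with TGF-β1 at 1 or 5 ng/mL for 48 h in RPMI1640 medium with reduced serum. The labels do not say whether the control cells were moved to the reduced serum too. There were 6 libraries in all, 1 for each combination of line and dose, so no difference between a pair of libraries has a replicate check.

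A miRNA of about this size pairs with messenger RNAs mainly through its seed, bases 2 to 8 from the 5′ end, and lowers the translation and stability of those it pairs with. In epithelial cells the miR-200 family and miR-205 repress ZEB1 and ZEB2, transcription factors that shut off E-cadherin, and ZEB factors in turn repress the genes of the miR-200 family. TGF-β1 is a widely used inducer of epithelial-mesenchymal transition, in which loss of this family has often been described. Treated and control cells were compared to find miRNAs that respond to TGF-β1 in a model of lung fibrosis.

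The mature sequences are given because the members differ by few bases, which sets both their seed groups and how well reads can be told apart. They were taken from RefSeq on GRCh38.p14, are written 5′ to 3′, and have the seed in capitals.
hsa-miR-200b-3p: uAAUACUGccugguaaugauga
hsa-miR-200c-3p: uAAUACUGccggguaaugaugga
hsa-miR-429: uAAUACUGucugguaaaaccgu
hsa-miR-200a-3p: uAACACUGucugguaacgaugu
hsa-miR-141-3p: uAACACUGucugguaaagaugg
hsa-miR-200a-5p: cAUCUUACcggacagugcugga
hsa-miR-200b-5p: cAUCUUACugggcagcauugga
hsa-miR-205-5p: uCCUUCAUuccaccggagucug

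The first 3 of these share 1 seed, miR-200a-3p and miR-141-3p share another, the 5p strands share theirs, and miR-205-5p stands alone. Counted from 1 at the 5′ end, hsa-miR-200a-3p and hsa-miR-200b-3p differ within the seed by the single substitution C4U. Over 22 aligned positions hsa-miR-200b-3p and hsa-miR-200c-3p differ by 2 substitutions, U11G and A22G, and hsa-miR-200a-3p and hsa-miR-141-3p by C17A and U22G. How reads that match both of such a pair were assigned is not given in the sources used here, so the split of counts within these pairs is uncertain. None of the other counted miRNAs matched to RefSeq shared a seed with a member.

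The genes lie at 3 places in the genome (GRCh38, all on the plus strand). MIR200B at chr1:1167104-1167198, MIR200A at chr1:1167863-1167952 and MIR429 at chr1:1169005-1169087 lie within 1984 bases, and no GENCODE 29 gene hosts them. MIR200C at chr12:6963699-6963766 and MIR141 at chr12:6964097-6964191 lie in introns of the noncoding gene MIR200CHG. MIR205 at chr1:209432133-209432242 lies within MIR205HG, where exons of 7 of its 10 annotated transcripts overlap the hairpin. Members of 1 place thus cross the seed groups: miR-200b and miR-200a come from the same locus and have different seeds, while miR-200b and miR-200c share a seed and come from different chromosomes.

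The libraries held between 633318 and 900424 miRNA counts. Counts were scaled by TMM, edgeR's trimmed mean of M-values, to a common size of 749498 and expressed as ND, log2(normalised count + 1). hsa-miR-21-5p took 35.4% of the BEAS-2B control library and between 47.6% and 57.2% of the others, and the BEAS-2B control had the highest TMM factor, 1.32 against 0.829 to 1.02, so comparisons with that library depend most on the scaling. Of 13 miRNAs listed for other cell types, miR-126-3p, known from endothelium, had 1003 to 1280 counts in A549, against 197 to 393 in BEAS-2B, and miR-9-5p, known from neurons, had 314 to 484 in A549 and 8 in each BEAS-2B library. The other 11, from blood, muscle, neurons and liver, summed to 17 to 27 counts in A549, to 55 in the BEAS-2B control and to 16 and 20 in treated BEAS-2B. Of these 11, miR-223-3p, miR-133a-3p and miR-206 had no count in any library, and the highest was the blood miRNA miR-486-5p with 35 counts in the BEAS-2B control. The part of those miRNAs in the results was not tested.

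The family was a small part of the miRNA content of both lines. All 8 members together had 227, 400 and 320 counts in A549 at 0, 1 and 5 ng/mL, and 498, 306 and 346 counts in BEAS-2B. In CPM, the count relative to the total of the library, these were 287, 444 and 505 in A549, against 677, 466 and 451 in BEAS-2B. On this scale A549 was lowest in its control and BEAS-2B was highest in its control. After TMM scaling the totals were 236, 402 and 372 in A549, against 383, 354 and 339 in BEAS-2B. The size of the fall in BEAS-2B thus depended on the scaling. hsa-miR-200b-3p alone gave 61.2% to 67.8% of the members' counts in A549, against 71.5% to 77.5% in BEAS-2B. By mean normalised count over the 6 libraries the order was hsa-miR-200b-3p at 243, hsa-miR-200a-3p at 42.1, hsa-miR-200c-3p at 23.9, hsa-miR-429 at 20.0 and hsa-miR-200a-5p at 12.9, with hsa-miR-200b-5p at 2.96, hsa-miR-141-3p at 2.53 and hsa-miR-205-5p at 0.622. Of these, the range of hsa-miR-200b-3p over the libraries lay wholly above the others, as did that of hsa-miR-200a-5p above hsa-miR-200b-5p, whereas the other neighbours in this order overlapped.

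**Figure D1:**
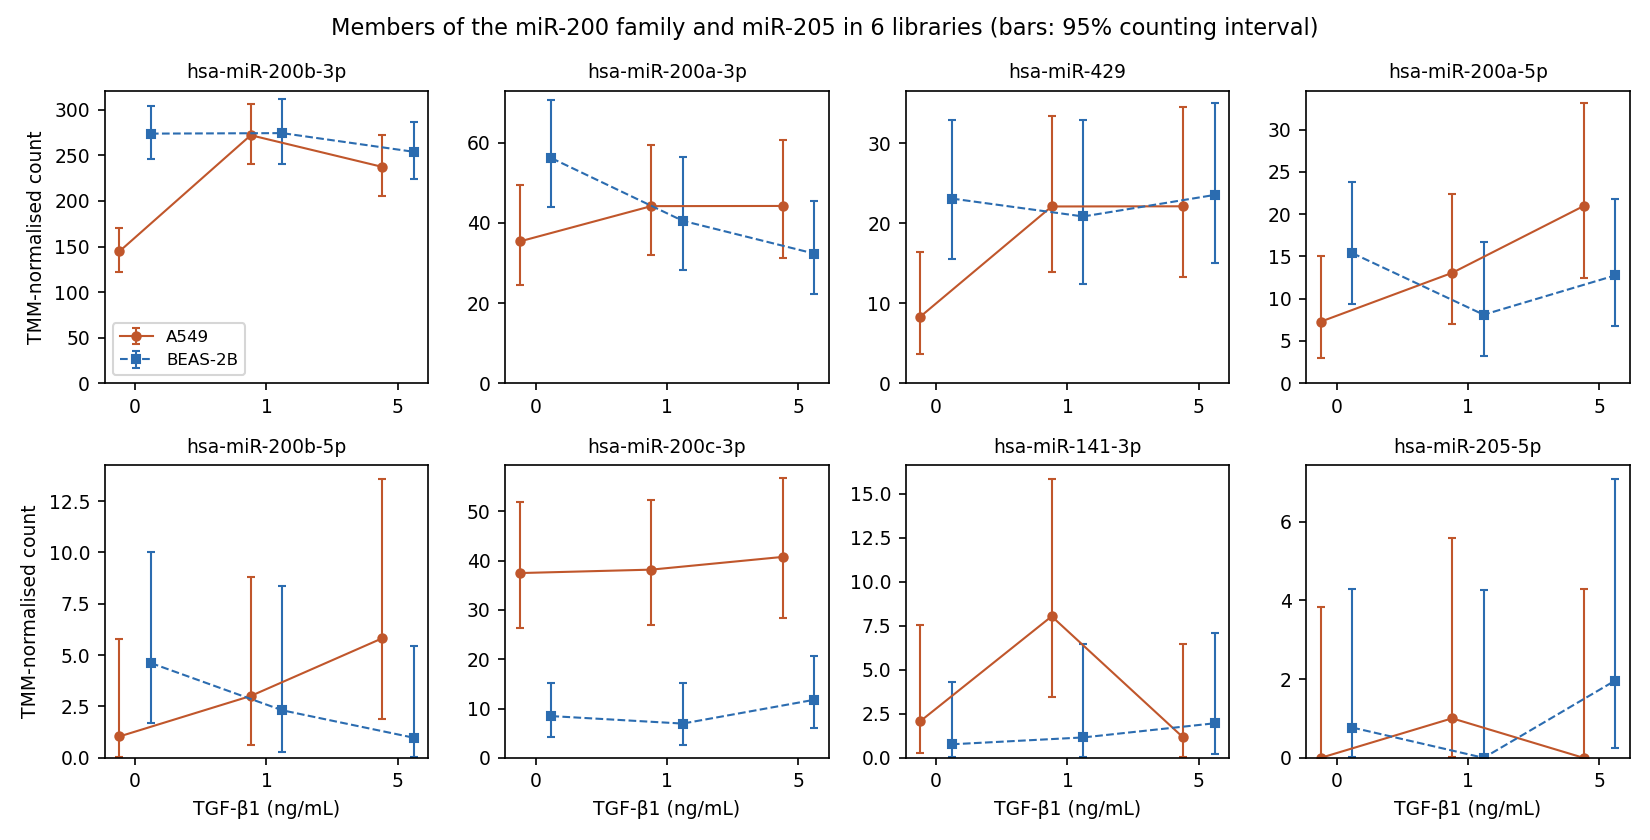
TMM-normalised counts (vertical axes, each on its own scale from 0) of the 8 members against TGF-β1 dose in ng/mL, with circles for A549, squares for BEAS-2B and bars for the 95% counting interval of the single library. For hsa-miR-200b-3p the A549 control at 145 lies below the other 5 libraries, which lie between 237 and 274, and for hsa-miR-200c-3p all 3 A549 libraries (37.5 to 40.7) lie above all 3 BEAS-2B libraries (6.95 to 11.8).

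hsa-miR-200b-3p was the best measured member. It had 139, 271 and 204 counts in A549 at 0, 1 and 5 ng/mL, which were 145, 272 and 237 after scaling. In BEAS-2B it had 356, 237 and 259 counts, or 274, 274 and 254 after scaling. The A549 control stood apart below both treated A549 libraries and all BEAS-2B libraries. The log2 ratio to control in A549 was 0.91 at 1 ng/mL (95% counting interval 0.61 to 1.22) and 0.71 at 5 ng/mL (0.40 to 1.04). Such an interval covers only the chance of counting reads in 2 libraries, not the spread between cultures. In BEAS-2B the ratios were 0.00 at 1 ng/mL (-0.24 to 0.24) and -0.11 at 5 ng/mL (-0.35 to 0.13). The A549 ratios kept their sign under every scaling and pseudocount tried, with ranges of 0.77 to 0.96 and 0.55 to 0.87. The BEAS-2B ratios depended on the scaling: under plain total counts they were -0.42 and -0.52. Between 1 and 5 ng/mL hsa-miR-200b-3p differed by -0.20 in A549 (-0.47 to 0.07), and by 0.10 under total counts.

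hsa-miR-429, with the seed of miR-200b and from the same locus, had 8, 22 and 19 counts in A549, against 30, 18 and 24 in BEAS-2B. After scaling these were 8.32, 22.1 and 22.1 in A549 against 23.1, 20.8 and 23.5 in BEAS-2B. Again the A549 control was the low library and the other 5 lay close together. The log2 ratio in A549 was 1.31 at both doses, with intervals of 0.19 to 2.79 and 0.15 to 2.81. In BEAS-2B it was -0.14 and 0.03. Over the 6 libraries the ND of hsa-miR-429 and hsa-miR-200b-3p had a Pearson's r of 0.96, given as a description of 6 points of which 1, the A549 control, lay far from the rest. Within a library, hsa-miR-429 made up 5.44% to 8.52% of the sum of both, and this share does not depend on the scaling.

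hsa-miR-200a-3p, from the same locus with the other seed, had 34, 44 and 38 counts in A549, against 73, 35 and 33 in BEAS-2B. After scaling these were 35.4, 44.2 and 44.2 in A549, against 56.2, 40.5 and 32.4 in BEAS-2B. Here the BEAS-2B control was the highest library, and the A549 libraries lay close together. The log2 ratio to control in A549 was 0.31 at both doses, with intervals that included 0. In BEAS-2B it was -0.46 at 1 ng/mL (-1.10 to 0.13) and -0.78 at 5 ng/mL (-1.43 to -0.18), and it stayed below 0 under every scaling tried, at -0.61 or lower at 5 ng/mL. The ND of hsa-miR-200a-3p and hsa-miR-200b-3p had a Pearson's r of 0.46 over the same 6 libraries.

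The 5p strands are the less abundant products of the MIR200A and MIR200B hairpins. hsa-miR-200a-5p had 7, 13 and 18 counts in A549, against 20, 7 and 13 in BEAS-2B. Its log2 ratio in A549 was 0.76 at 1 ng/mL (-0.59 to 2.41) and 1.41 at 5 ng/mL (0.20 to 3.03), and in BEAS-2B -0.85 and -0.25 with intervals that included 0. In A549 this strand was thus lowest in the control, as hsa-miR-200b-3p and hsa-miR-429 were. hsa-miR-200b-5p had only 1, 3 and 5 counts in A549, against 6, 2 and 1 in BEAS-2B, and every interval of its ratios included 0. The 3p strand gave 97.6% to 99.6% of the counts of MIR200B in every library. For MIR200A it gave 82.9%, 77.2% and 67.9% in A549, against 78.5%, 83.3% and 71.7% in BEAS-2B. In both lines this share was lowest at 5 ng/mL, but the exact binomial intervals of all 6 libraries overlapped (in A549, 67.9% to 92.8% in the control and 54.0% to 79.7% at 5 ng/mL).

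Summed over its 5 measured strands, the MIR200B/MIR200A/MIR429 locus had 189, 353 and 284 counts in A549, against 485, 299 and 330 in BEAS-2B. The log2 ratio of the sum was 0.85 at 1 ng/mL (0.59 to 1.11) and 0.75 at 5 ng/mL (0.48 to 1.02) in A549. In BEAS-2B it was -0.11 (-0.32 to 0.10) and -0.21 (-0.41 to -0.00086), and -0.53 and -0.62 under total counts. The counting intervals of the lines did not overlap at either dose, and the A549 ratio exceeded that of BEAS-2B by 0.95 at both doses, or by 0.77 to 1.59 over the library size scalings tried. Whether the response differed between the lines was not tested, because each line had 1 library a dose. Both doses of a line share its control library, so the values at 1 and 5 ng/mL are not separate evidence.

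At the other locus, hsa-miR-200c-3p had 36, 38 and 35 counts in A549, against 11, 6 and 12 in BEAS-2B. After scaling these were 37.5, 38.2 and 40.7 in A549, against 8.46, 6.95 and 11.8 in BEAS-2B. The 3 A549 libraries lay within a narrow range, and the lines did not overlap. The log2 ratio to control was 0.03 at 1 ng/mL (-0.67 to 0.73) and 0.12 at 5 ng/mL (-0.59 to 0.83) in A549, and -0.25 (-2.00 to 1.28) and 0.43 (-0.83 to 1.80) in BEAS-2B. In A549 these intervals overlapped those of hsa-miR-200b-3p at both doses, but overlap of separate intervals cannot decide whether the members' responses differed. Within a library, hsa-miR-200b-3p made up 79.4% of the sum of both in the A549 control. This share was 87.7% at 1 ng/mL and 85.4% at 5 ng/mL. Whether the members' responses differed was not tested.

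hsa-miR-141-3p, the partner of miR-200c at this locus, had 2, 8 and 1 counts in A549, against 1, 1 and 2 in BEAS-2B. Only the A549 library at 1 ng/mL was above 3 counts, the number taken as the floor of detection. Its log2 ratio to control of 1.55 there had an interval of -0.38 to 5.22. hsa-miR-205-5p had 1 count in A549 at 1 ng/mL, 1 in the BEAS-2B control and 2 in BEAS-2B at 5 ng/mL, and no count in the other 3 libraries. Where the count was 0, the floor of 3 counts was worth 3.80 CPM in the A549 control, 4.74 CPM in A549 at 5 ng/mL and 4.57 CPM in BEAS-2B at 1 ng/mL. miR-205 is known as abundant in basal cells of stratified and airway epithelium, and at this depth neither line could be told from having none. The opposite strands outside the set were as scarce, with 0 counts of hsa-miR-200c-5p and hsa-miR-205-3p in every library and 1 count of hsa-miR-141-5p, in the A549 control.

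**Figure D2:**
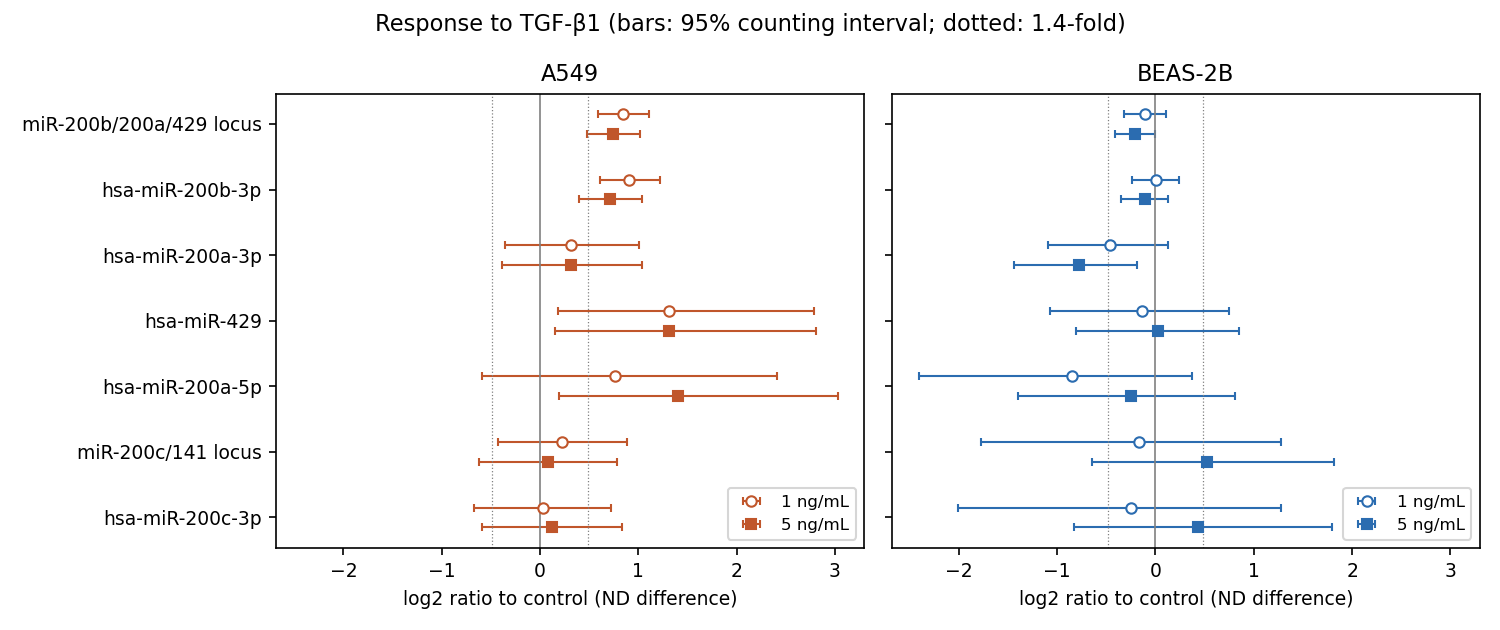
Log2 ratio of TGF-β1-treated to control cells (horizontal axis, difference in ND) for 5 members and the sums of both miR-200 loci in A549 (left) and BEAS-2B (right), with open circles for 1 ng/mL, filled squares for 5 ng/mL, bars for the 95% counting interval and dotted lines at 1.4-fold. In A549 the MIR200B/MIR200A/MIR429 locus lies at 0.85 and 0.75 and the MIR200C/MIR141 locus at 0.22 and 0.08, and in BEAS-2B the former lies at -0.11 and -0.21.

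Grouped by seed, the sum of hsa-miR-200b-3p, hsa-miR-200c-3p and hsa-miR-429 had log2 ratios of 0.80 (0.54 to 1.07) and 0.65 (0.38 to 0.94) in A549 at 1 and 5 ng/mL. In BEAS-2B they were -0.02 and -0.08. The sum of hsa-miR-200a-3p and hsa-miR-141-3p had ratios of 0.47 and 0.27 in A549 and of -0.44 and -0.71 in BEAS-2B, of which only the last had an interval without 0 (-1.35 to -0.13). The first seed made up 83.6% to 89.4% of the counts of the 5 guide strands (the 3p strands of the 5 miR-200 hairpins), with intervals that overlapped between all libraries.

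The study selected miRNAs by ND of at least 8, here in the higher of the compared libraries, and a change of at least 1.4-fold, without a test. Only hsa-miR-200b-3p reached ND 8, in 3 libraries: A549 at 1 ng/mL (8.09), the BEAS-2B control (8.10) and BEAS-2B at 1 ng/mL (8.11). It passed as higher in A549 at 1 ng/mL, the only member tested, where 48.9% of all miRNAs tested passed in either direction, and it did not pass under total counts, TMM within each line or quantile normalisation. At 5 ng/mL in A549 it had an ND of 7.90, so no member was tested, against 53.2% of miRNAs that passed. In BEAS-2B it did not pass at 1 ng/mL, where 29.2% passed, or at 5 ng/mL, where 36.0% passed. Between 1 and 5 ng/mL it passed in neither line, with 16.9% of all miRNAs past the criteria in A549 and 6.61% in BEAS-2B. With at most 1 member tested, nothing particular to the family can be read from these counts.

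With only a summed count of at least 10 asked of the compared pair, 4 of 6 members tested were at least 1.4-fold higher in A549 at 1 ng/mL, beside 49.6% of all miRNAs changed that much in either direction. At 5 ng/mL it was 3 of 5, beside 62.5%. In BEAS-2B 1 of 5 was lower at 1 ng/mL (hsa-miR-200a-5p), beside 43.5%, and 1 of 5 at 5 ng/mL (hsa-miR-200a-3p), beside 44.8%. Between the doses, 1 of 5 was higher at 5 than at 1 ng/mL in A549, beside 37.4%, and 2 of 5 in BEAS-2B, beside 25.8%. These shares lie on both sides of the background, and at such low counts a 1.4-fold change is often within the counting interval. In A549 the median log2 ratio of the members tested was 0.83 at 1 ng/mL (range 0.03 to 1.55). At 5 ng/mL it was 0.71 (0.12 to 1.41), and that of all miRNAs tested was 0.03 and 0.10 at these doses. The members at 1 ng/mL in A549 included hsa-miR-141-3p, which was not tested at 5 ng/mL. In BEAS-2B the medians were -0.25 (-0.85 to 0.00) and -0.11 (-0.78 to 0.43) against 0.00 and 0.07. Most of these members come from 1 locus and share control libraries, so the medians are descriptions and not averages over replicates.

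The only test the design allows is a fit over all 6 libraries with dose and line as terms (edgeR's quasi-likelihood test, Benjamini-Hochberg adjustment over the 404 miRNAs that passed its filter on low counts). Its spread is that of responses across lines, not of replicate cultures. Of the 8 members 5 passed the filter, and none was called for dose, where 1.24% of all miRNAs were called at 1 ng/mL and 1.73% at 5 ng/mL. hsa-miR-200b-3p had a log2 change across both lines of 0.43 at 1 ng/mL (95% interval -0.34 to 1.20, edgeR adjusted p = 0.598) and 0.27 at 5 ng/mL (-0.49 to 1.04, adjusted p = 0.714). For hsa-miR-429 the changes were 0.49 and 0.55 (edgeR adjusted p = 0.702 and 0.610). No member had an unadjusted p under 0.05 for either dose in edgeR or in DESeq2, which called 0 of 5 members, whereas over all miRNAs edgeR gave 54 and 64 such values at 1 and 5 ng/mL. The fit averages both lines, so a response of 1 line enters it with only part of its size.

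Between the lines, hsa-miR-200c-3p was the only member called in the fit. Across the doses it was higher in A549 than in BEAS-2B by 2.11 on the log2 scale (SE 0.36, 95% interval 1.28 to 2.94, edgeR adjusted p = 0.00257), and it was higher in A549 at 3 of 3 doses. It was 1 of 5 members called, where 48.0% of all 404 miRNAs were called for line, so a difference between these lines was common. The log2 ratio was 2.02 in the controls (1.14 to 3.27), 2.30 at 1 ng/mL (1.20 to 3.99) and 1.71 at 5 ng/mL (0.81 to 2.87). It stayed called in the 10 alternative fits, including those without both libraries of a dose, with adjusted p from 5.49e-06 to 0.0385. The lines are also of different origin, 1 from a tumour and the other immortalised, and each is a single line.

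The other 4 members in the fit were not called for line. hsa-miR-200b-3p differed by -0.34 (A549 minus BEAS-2B, -0.97 to 0.29, edgeR adjusted p = 0.333), hsa-miR-429 by -0.44 (adjusted p = 0.412), hsa-miR-200a-3p by -0.04 (adjusted p = 0.919) and hsa-miR-200a-5p by 0.12 (adjusted p = 0.843). Whether their line difference varied with dose was not tested. In the controls hsa-miR-200b-3p was lower in A549 by a log2 ratio of -0.92 (-1.21 to -0.63), and at 1 and 5 ng/mL the ratio was -0.01 (-0.27 to 0.25) and -0.10 (-0.37 to 0.17). hsa-miR-429 had -1.37 in the controls (-2.81 to -0.31) and 0.08 and -0.09 in treated cells, and hsa-miR-200a-3p had -0.65 (-1.30 to -0.06) and then 0.12 and 0.44. Only for hsa-miR-200b-3p did the interval in the controls lie apart from those in treated cells. These ratios rest on the same 6 libraries as the responses and are not separate evidence.

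**Figure D3:**
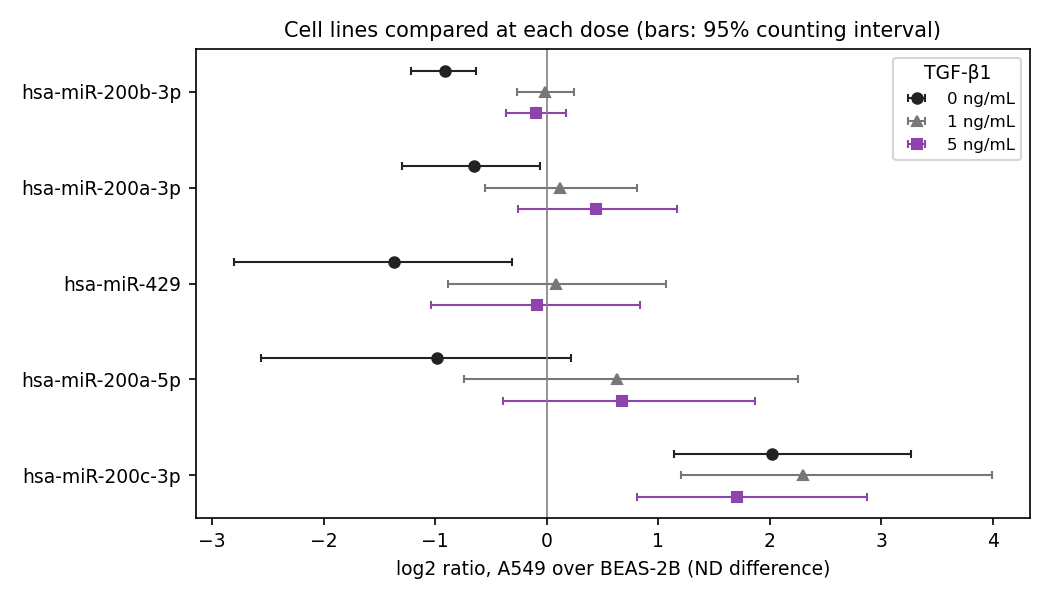
Log2 ratio of A549 to BEAS-2B (horizontal axis, difference in ND) for 5 members in the controls (circles), at 1 ng/mL (triangles) and at 5 ng/mL (squares) TGF-β1, with bars for the 95% counting interval. hsa-miR-200c-3p lies between 1.71 and 2.30 at all doses, while hsa-miR-200b-3p lies at -0.92 in the controls and at -0.01 and -0.10 after treatment.

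By the ND and 1.4-fold criteria, hsa-miR-200b-3p passed as lower in A549 in the controls, where 68.9% of all miRNAs tested passed, and no member passed at 1 ng/mL (64.3%) or 5 ng/mL (67.8%). With a summed count of at least 10, 5 of 5 members tested passed in the controls, 1 higher and 4 lower in A549, beside 70.2% of all miRNAs. At 1 and 5 ng/mL 2 of 5 passed, both higher, beside 69.6% and 72.5%.

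The make-up of the family can be compared without any scaling between libraries. Of the 5 guide strands, hsa-miR-200c-3p and hsa-miR-141-3p from chromosome 12 gave 17.4% in the A549 control (exact binomial 95% interval 12.6 to 23.0) and 12% in A549 at 1 and 5 ng/mL (8.93 to 15.7 and 8.64 to 16.4). In BEAS-2B they gave 2.55% (1.32 to 4.41), 2.36% (0.953 to 4.80) and 4.24% (2.34 to 7.02). The lines did not overlap in this share. The A549 control had the highest share, and its interval overlapped those of the treated A549 libraries. hsa-miR-200b-3p gave 79.4% to 87.7% of the sum of itself and hsa-miR-200c-3p in A549, against 95.6% to 97.5% in BEAS-2B.

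**Figure D4:**
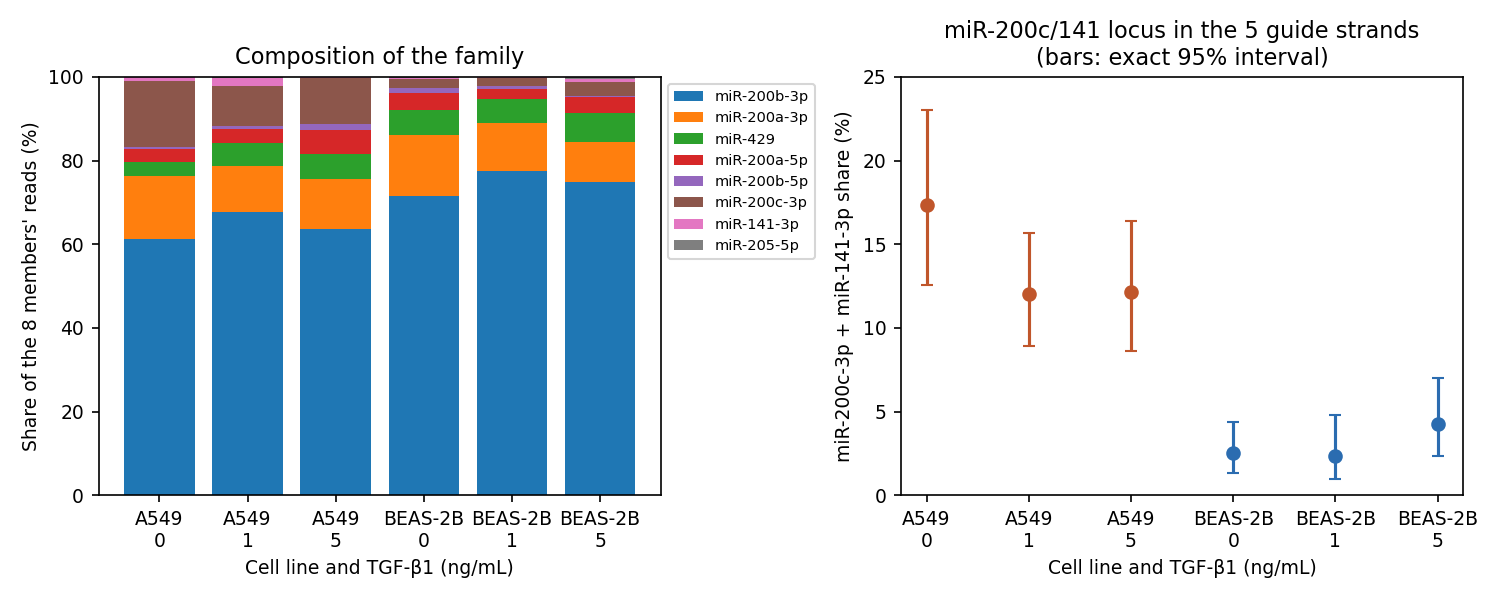
Left, share of each member in the 8 members' counts (percent, stacked to 100) in each library. Right, share of hsa-miR-200c-3p plus hsa-miR-141-3p in the 5 guide strands (percent, bars for the exact binomial 95% interval), which lies between 12% and 17.4% in A549 and between 2.36% and 4.24% in BEAS-2B.

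For each member with a mean of at least 10 normalised counts, the miRNAs with the most similar ND over the 6 libraries were taken from 392 candidates, with Pearson's r as a description. hsa-miR-200c-3p was most like hsa-miR-96-5p (r = 0.996), which had 555, 577 and 552 counts in A549, against 158, 101 and 158 in BEAS-2B, followed by hsa-miR-196a-5p (0.989) and hsa-miR-363-3p (0.986). All 3 were higher in every A549 library. hsa-miR-200b-3p was most like hsa-miR-135b-5p (r = 0.954), which had 8, 42 and 33 counts in A549, against 112, 44 and 49 in BEAS-2B. hsa-miR-16-2-3p (0.937) and hsa-miR-4497 (0.915) followed. Under total counts the first 2 of these stayed the closest, whereas hsa-miR-4497 ranked 19 of the 392 candidates. The counts of hsa-miR-4497 were 9, 68 and 84 in A549, against 99, 127 and 136 in BEAS-2B. For hsa-miR-429 they were hsa-miR-6126 (0.955), hsa-miR-4497 (0.939) and hsa-miR-135b-5p (0.938), so 2 of the 3 were those of hsa-miR-200b-3p. By ranks these 3 were less like hsa-miR-429, with a Spearman's rho of 0.71, 0.37 and 0.49. For hsa-miR-200a-3p they were hsa-miR-185-5p at 0.816, hsa-miR-4746-5p at 0.795 and hsa-miR-30e-3p at 0.794, which under total counts had an r of 0.938, 0.913 and 0.973. hsa-miR-200a-5p was most like hsa-miR-6087 (0.920), hsa-miR-6836-3p (0.851) and hsa-miR-1260b (0.828). The 6 points share their line and their control, and hsa-miR-200b-3p and hsa-miR-200c-3p had an r of -0.52 with each other.

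Other miRNAs associated with epithelium were set beside the family from a list of 13. Of 7 tested by ND in A549, 1 passed as higher and 3 as lower at 1 ng/mL, and 1 and 3 at 5 ng/mL, beside 48.9% and 53.2% of all miRNAs. The one that passed as higher was hsa-miR-31-5p, with 1287, 1973 and 1619 counts, and those lower were hsa-miR-192-5p (13886, 7408 and 5545 counts), hsa-miR-194-5p (3384, 2399 and 1902) and hsa-miR-215-5p (1142, 545 and 455), which are known from gut, liver and kidney epithelium. In BEAS-2B none of the 2 tested passed at either dose, beside 29.2% and 36.0%. All 7 were higher in A549 than in BEAS-2B at each dose by these criteria, as hsa-miR-200c-3p was in the fit and hsa-miR-200b-3p was not. Of all miRNAs 68.9%, 64.3% and 67.8% differed in either direction at 0, 1 and 5 ng/mL. Only 2 of the listed miRNAs were tested by ND within BEAS-2B, so most of the 7 reached ND 8 through A549. With a summed count of at least 10, 10 of 11 were higher in A549 at 0 and at 1 ng/mL and none was lower. At 5 ng/mL 8 of 10 were higher and 1 was lower (hsa-miR-34c-5p, log2 ratio -1.08, -1.61 to -0.59). By that rule 70.2%, 69.6% and 72.5% of all miRNAs differed in either direction. Within A549, the same rule gave 5 of 11 lower and 1 higher at 1 ng/mL, and 6 and 1 at 5 ng/mL, beside 49.6% and 62.5%. Within BEAS-2B, 2 of 9 were lower and 1 higher at 1 ng/mL, and 1 and 1 at 5 ng/mL, beside 43.5% and 44.8%. hsa-miR-34a-5p was lower in A549 (log2 ratios -0.59 and -1.14) and higher in BEAS-2B (0.98 and 1.42).

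Of 12 miRNAs associated with mesenchyme, 6 were tested by ND in each line. In A549 3 passed as higher at 1 and at 5 ng/mL, beside 48.9% and 53.2% of all miRNAs in either direction. Of all miRNAs, 37 passed as higher and 30 as lower at 1 ng/mL, and 38 and 37 at 5 ng/mL. In BEAS-2B 3 and 4 of the 6 passed as higher, beside 29.2% and 36.0% in either direction. As higher alone, 19 of 120 and 25 of 125 of all miRNAs passed there. None of the listed miRNAs passed as lower in either line. With a summed count of at least 10, 4 of 8 were higher in A549 at both doses, beside 49.6% and 62.5% in either direction. In BEAS-2B 4 and 5 of 7 were, beside 43.5% and 44.8%. By this rule 1 was lower, hsa-miR-424-5p in A549 at 5 ng/mL (log2 ratio -0.81, -1.18 to -0.46). hsa-miR-155-5p fell in BEAS-2B by less than 1.4-fold (-0.46 and -0.44, intervals without 0). In the fit over both lines hsa-miR-143-3p, abundant in smooth muscle and fibroblasts, was called at 1 ng/mL with a log2 change of 3.47 (edgeR adjusted p = 0.00689), with 148, 1658 and 1106 counts in A549, against 7, 62 and 101 in BEAS-2B. The fit thus called a large response that both lines share, in a list chosen with earlier results of these data known. Its power for changes as small as those of the members was not tested. hsa-miR-181b-5p was called as well, with a log2 change of 1.44 at 1 ng/mL (edgeR adjusted p = 0.0353) and an adjusted p of 0.0162 at 5 ng/mL.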

How the data were processed

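Small RNA libraries (NEBNext kit) were made for 6 combinations of line and dose and sequenced by the authors, who deposited whole-number counts per mature miRNA, 1 table a library. Bowtie2 and bedtools are named in the submitters' processing notes; versions, genome build, miRNA annotation, treatment of multiply mapped reads and the normalisation behind the study's ND are not given in the sources used here. The 8 members and the lists of other miRNAs were chosen with earlier results of these data known. Sequences and positions came from RefSeq and GENCODE 29; 2281 of 2588 names matched RefSeq.

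Counts were scaled with TMM (edgeR 4.0.16, R 4.3.3). Log2 ratios of ND were given with exact conditional binomial 95% intervals, and shares with Clopper-Pearson intervals (SciPy 1.17.1). Reads carried no stated molecular identifiers, so intervals and the floor of 3 counts cover counting error only. The floor was 3.33 to 4.74 CPM. edgeR's quasi-likelihood test (dose and line as terms, 2 residual degrees of freedom, adjusted p under 0.05) used all libraries, and DESeq2 1.42.0 was an alternative. The edgeR script was tested on simulated data with changes between the lines only, so its tests for dose were not covered. With 1 library a group, p-values measure only the spread across doses or lines. Named were all members, the opposite strands, the 3 miRNAs most like each member with a mean of at least 10 normalised counts, and listed miRNAs. The listed miRNAs printed with counts or ratios were chosen after their values were seen.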

Additional observations from a re-analysis of the deposited data

Results flagged for a closer look

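hsa-miR-200a-3p had log2 ratios of opposite sign in the lines at both doses, although of these only that of BEAS-2B at 5 ng/mL had a counting interval without 0. Its ratio to control was 0.31 in A549 and -0.46 in BEAS-2B at 1 ng/mL, a difference of 0.77, and 0.31 and -0.78 at 5 ng/mL, a difference of 1.09. hsa-miR-200a-5p, from the same hairpin, had opposite signs too, with 0.76 and -0.85 at 1 ng/mL, a difference of 1.61, and 1.41 and -0.25 at 5 ng/mL, a difference of 1.66. Each line had 1 library a dose, both doses share a control, and the counting intervals of the lines overlapped in all 4 cases, so the difference was not tested. The difference stayed above 0 under every scaling tried (0.66 to 1.65 for hsa-miR-200a-3p and 1.38 to 2.20 for hsa-miR-200a-5p), but under quantile normalisation the A549 ratio of hsa-miR-200a-3p at 5 ng/mL was -0.08, so that both lines then had the same sign.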

How the results depend on the processing

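No paired analysis was possible because the labels carry no replicate numbers and each group had 1 library; the edgeR fit already had both line and dose as terms. Quantile normalisation was not run for sums of members. The 54 member log2 ratios were recomputed 414 times with other scalings and pseudocounts: 405 values stayed within the main counting interval, 9 did not, and 15 ratios changed sign under at least 1 setting. Those outside were all of hsa-miR-200b-3p; with no scaling its ratio in BEAS-2B was -0.58 at 1 ng/mL and -0.46 at 5 ng/mL, and its line ratio in the controls was -1.45 under total counts. For the 1 member past the ND and fold criteria in A549 at 1 ng/mL, the count was 0 under total counts, TMM within each line, quantile normalisation, ND of at least 9, ND of at least 8 in both libraries or a fold of at least 2, and 4 with a summed count of at least 10. In A549 at 5 ng/mL it went from 0 to 1 under total counts without hsa-miR-21-5p or ND of at least 7, and to 3 with the summed count; between 5 and 1 ng/mL it went to 1. In BEAS-2B it went from 0 to 1 at 1 ng/mL with no scaling or the summed count, to 1 at 5 ng/mL under total counts or the summed count, and to 2 between 5 and 1 ng/mL. Between the control libraries it went from 1 to 0 under ND of at least 9, ND of at least 8 in both or a fold of at least 2, and to 5 with the summed count, which gave 2 at 1 and at 5 ng/mL. edgeR's 194 calls for line became 96 to 181 without both libraries of a dose, 96 being without those at 1 ng/mL. Its 5 calls at 1 ng/mL became 1 under total counts or no scaling, 14 without the low-count filter and 3 with at least 30 counts in 3 libraries, and its 7 calls at 5 ng/mL became 1, 4 and 17 under the first 3 of these. No member was among the dose calls in any of these fits (lowest adjusted p = 0.541). Of 30 recomputed likenesses, 17 stayed among the 3 closest. The cause of these shifts was not tested. Counts under about 20 a library limit hsa-miR-429, hsa-miR-200a-5p and hsa-miR-200c-3p in BEAS-2B.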
